A study of Mus musculus with 34 samples.

Results

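The genes that write and read DNA methylation were followed as targets of methylation themselves. They are the methyltransferases Dnmt1, Dnmt3a and Dnmt3b, their cofactors Dnmt3l and Uhrf1, and the methyl-CpG-binding domain genes Mbd1, Mbd2, Mbd3 and Mbd4. Probes carrying the name of 1 of these 9 genes were joined into CpG islands, with gaps of at most 500 bases and at least 3 probes, which gave 10 islands of 8 genes among 13651 islands scored on every array. Dnmt3l had 2 probes and no island. Each island has an island methylation score (IMS), which averages the Z-scores of its probes, where 0 is the average probe of the array and 1 is 1 SD of all its probes.

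Methylated DNA was immunoprecipitated from mouse DNA (mDIP), and bound and input DNA were hybridised together on 34 CpG island arrays. Normal adult tissue was taken from mice of 3 months, with 2 arrays each of colon, pancreas, brain, kidney, liver, lung, muscle and spleen, and whole embryos were taken on days 8.5, 9.5, 10.5, 11.5 and 12.5, 1 array a day. Undifferentiated embryonic stem (ES) cells were the lines EB5, J1 and TT2, 1 array each, and the 5 arrays of differentiated ES cells held embryoid bodies and retinoic acid treated cells, labelled as TT2 derived, and 2 of endoderm and 1 of mesoderm, sorted from an EB5 derived reporter line exposed to Activin. There were 2 arrays of teratomas, labelled as J1 derived, grown in NOD-SCID mice and so open to cells of the host, and 1 array each of ex vivo β cells sorted from Pdx1-GFP mice, of the β cell tumour line Min6 and of the α cell tumour line αTC. For the retinoic acid treated cells the study's methods name J1, while its figure legend names TT2, as the label does. For the teratomas the methods name other lines than J1. No label ties arrays to separate animals or cultures, so p-values measure only the spread between arrays, which may be technical, and the number of arrays limits the precision.

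Input signals had medians of 3.07 to 7.34 times background and bound signals of 1.54 to 5.59 times. The arrays lay on 23 slides scanned on 16 days, 4 of the slides held 2 groups, and embryos shared no slide, scan day or scanner software version with adult tissue. The scanner values of J1 correlated with the study's deposited values for the same array at r = 0.11, against 0.89 to 0.99 for the other arrays, and results that rest on undifferentiated cells are given with and without J1.

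In mammals Dnmt1 copies methylation onto the new strand after replication, and Uhrf1 brings it to hemimethylated CpG sites. Dnmt3a and Dnmt3b methylate new sites, above all around implantation, and Dnmt3l is an inactive relative that stimulates them, mainly in germ cells. Methyl-CpG-binding domain proteins read the mark: Mbd1 and Mbd2 repress methylated genes, Mbd3 is a subunit of the NuRD repressor that binds methylated CpG poorly, and Mbd4 is a glycosylase that repairs deaminated methylcytosine. CpG islands at gene starts are as a rule free of methylation, whereas islands inside genes can be methylated in normal tissue.

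Of the 10 islands, 8 lay at gene starts or short-form promoters and 2 lay inside a gene. The files name no genome build, and positions are theirs. The Dnmt1 island (chr9:20702857-20703407, 6 probes) ran from -110 to 396 bases relative to the gene start. The Uhrf1 island (chr17:55936882-55938225, 11 probes) was the longest, at 1344 bases. Dnmt3a had an internal island (chr12:3808024-3808421, 4 probes, 1067 to 1420 bases after the start) and an island before the start of its short form (chr12:3891201-3891712, 4 probes, at -530 to -67 bases), the transcript made in ES and germ cells from a promoter within the gene. The Dnmt3b island (chr2:153341053-153341438) had 3 probes, 178 to 517 bases after the start. The Mbd islands at gene starts were those of Mbd1 (6 probes), Mbd2 (4 probes), Mbd3 (chr10:79801787-79803127, 9 probes) and Mbd4 (chr6:115818874-115819486, 7 probes, 3 of them named Mbd4 and the rest for Ift122, its divergent neighbour). Mbd3 also had an island of 3 probes inside the gene (chr10:79798479-79798816), 3814 to 4107 bases after the start.

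The promoters of Mbd3 and of the short form of Dnmt3a are printed because the former was unmethylated beside a methylated island of the same gene, and the latter belongs to the start island that varied most between arrays. They are the 250 bases before each start in RefSeq (GRCm38.p6), read 5′ to 3′ on the gene's strand, with each CG in capitals. The Mbd3 promoter lies on the minus strand at chr10:80399532-80399781 and the Dnmt3a short-form promoter on the plus strand at chr12:3891494-3891743, and both fall by distance to the start into the islands described here, the latter in part.
Mbd3: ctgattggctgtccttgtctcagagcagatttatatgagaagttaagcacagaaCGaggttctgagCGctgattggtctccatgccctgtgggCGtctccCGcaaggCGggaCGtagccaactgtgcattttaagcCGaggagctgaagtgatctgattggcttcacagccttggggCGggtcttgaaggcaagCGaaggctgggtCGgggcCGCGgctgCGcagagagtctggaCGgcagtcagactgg
Dnmt3a short form: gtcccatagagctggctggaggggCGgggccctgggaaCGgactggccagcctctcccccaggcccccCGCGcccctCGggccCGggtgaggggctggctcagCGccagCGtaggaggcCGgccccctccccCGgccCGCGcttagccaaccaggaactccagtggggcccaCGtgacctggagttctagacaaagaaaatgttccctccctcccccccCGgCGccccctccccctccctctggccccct
The Mbd3 promoter held 14 CG and the short-form promoter 15, and 29.4% and 27.3% of the 32851 promoters of this table held as many or more, with a median of 6. The promoters of the long forms of Dnmt3a held 38 and 40 CG, a number reached by 1.88% and 1.31% of promoters. Dnmt3b held 21 and Mbd4 22 CG, so that the 2 printed promoters were the poorest in CG among those read.

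The Mbd3 island inside the gene was the only one of the 10 that was strongly methylated in normal tissue. Over the 16 adult arrays its IMS ran from 2.26 to 3.65 with a median of 2.76, and its mean of 2.88 ± 0.33 (SD, n = 16) stood at the 97.9th percentile of all islands. The start island of the same gene ran from -0.77 to -0.31, with a median of -0.52 and a mean of -0.53 ± 0.12, at the 11.1th percentile. The ranges did not meet on any adult array. In the study's figure legend, islands have an IMS below 0 in all tissues and above 0.75 in at least 1 ES cell type. Both bounds were applied here to adult tissue, with islands above 0.75 on every adult array taken as methylated and those below 0 as unmethylated. The study's Z-scores were taken within classes of probe melting temperature, a step left out here, so the bounds lie on an unlike scale. By these bounds 1 of 10 member islands was methylated, against 7.41% of all islands. Unmethylated on every adult array were 5 of 10, those of Dnmt1, Dnmt3b, Mbd1, Mbd2 and the start of Mbd3, against 30.5% of all islands.

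The islands of the maintenance genes had adult means below 0, and that of Uhrf1 was even over the arrays. Dnmt1 had an adult mean of -0.31 ± 0.19, from -0.66 to -0.02, at the 38.0th percentile of all islands. Its SD over all 34 arrays, 0.26, was near the middle of all islands (46.2th percentile). Uhrf1 had a mean of -0.41 ± 0.16, with 15 adult arrays below 0 and lung 2 at 0.01. The SD of Uhrf1 over all 34 arrays was 0.14, a spread smaller than that of nearly all islands (1.07th percentile). Neither the embryo mean of Uhrf1, -0.48 ± 0.12 (n = 5), nor the differentiated mean, -0.43 ± 0.13 (n = 5), lay outside the adult range.

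Among the de novo enzymes, Dnmt3b was low throughout, with an adult mean of -0.52 ± 0.20 and all 34 arrays between -1.18 and -0.11. The internal Dnmt3a island was close to the average probe, with an adult mean of 0.06 ± 0.18 and a range from -0.20 to 0.53. The short-form island of Dnmt3a was the variable one. Its adult arrays ran from -0.55 to 1.21 with a median of 0.32, and its SD over all arrays, 0.59, stood at the 91.1th percentile. The spread lay within tissues as much as between them: brain gave -0.12 and 1.21, kidney -0.45 and 0.90, and the largest gap between the 2 arrays of a tissue, 1.34, exceeded the gap between the lowest tissue mean, colon at -0.23, and the highest, spleen at 0.74.

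Of the readers at their gene starts, Mbd2 (chr18:70693376-70693767, at -153 to 189 bases) was the lowest, with an adult mean of -0.75 ± 0.32 (1.41th percentile) and a range from -1.30 to -0.05. Mbd4 had an adult mean of -0.37 ± 0.24, with 14 arrays below 0 and the others, liver 2 and muscle 2, at 0.05 and 0.01. Mbd1 (chr18:74393253-74393936, at -397 to 240 bases) was near the middle of all islands in adult tissue, at the 52.2th percentile, with a mean of -0.20 ± 0.12, a median of -0.17 and a range from -0.50 in lung 2 to -0.05 in muscle 2. In the order of adult means each island overlapped its neighbours except the internal Mbd3 island, whose lowest adult array, at 2.26, lay above the highest of the next island, the Dnmt3a short form at 1.21.

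**Figure D1:**
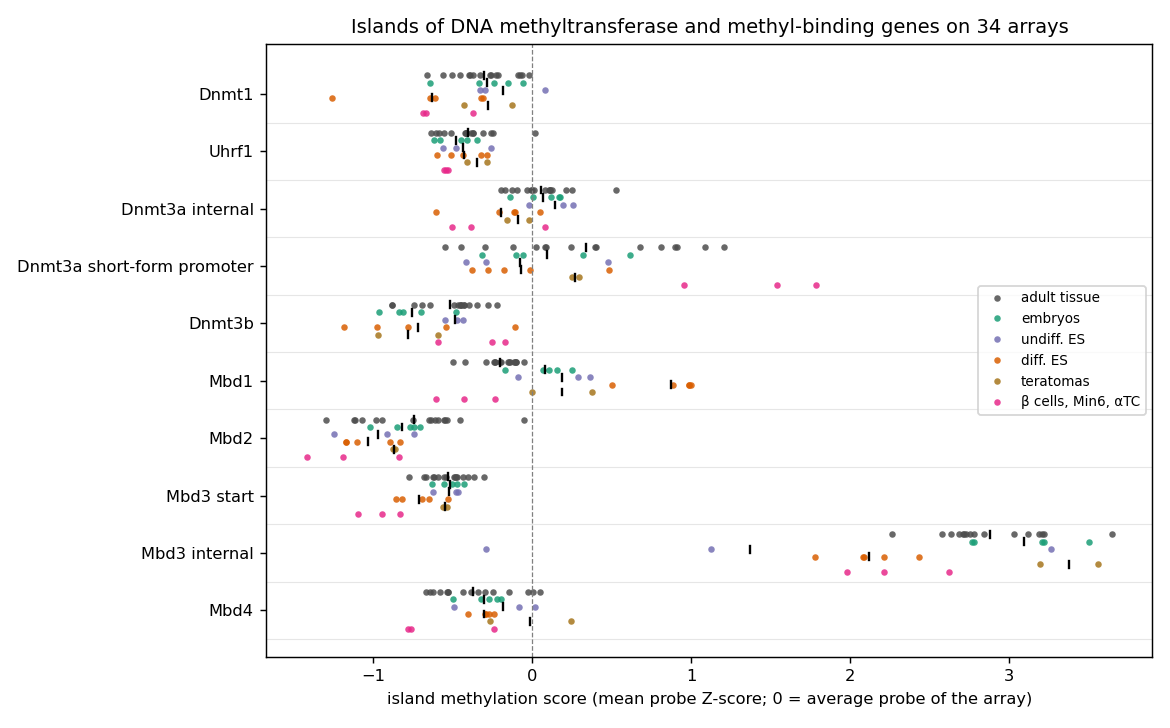
Island methylation score (horizontal axis, mean probe Z-score, 0 is the average probe of the array) of the 10 islands on 34 arrays, 1 point per array, coloured by group, with vertical ticks at the mean of each group of at least 2 arrays. The internal Mbd3 island lies at 1.78 or above on all arrays but EB5 and TT2, the Mbd1 island lies at 0.50 or above on the differentiated ES arrays only, and in the other islands each group of at least 2 arrays overlaps adult tissue.

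No member island differed among the 8 adult tissues by limma's F test with Benjamini-Hochberg adjustment (0 of 10, all adjusted p of 1.00), where 11 islands in all, 0.0806%, were called and 564 had an unadjusted p under 0.05. Missing the threshold with 2 arrays a tissue does not show that the tissues were alike. For the internal Mbd3 island the tissue means ran from 2.55 in colon to 3.20 in lung, while the 2 arrays of a tissue differed by up to 0.90. For Mbd1 they ran from -0.37 in lung to -0.08 in muscle, with a largest gap of 0.31.

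Differentiated ES cells were compared with adult tissue to ask which islands carry methylation in culture that normal tissue lacks. Mbd1 was the member that did. Its IMS was 1.00 in embryoid bodies, 0.98 in retinoic acid treated cells, 0.50 and 0.89 in endoderm and 0.98 in mesoderm, a mean of 0.87 ± 0.21 (n = 5). All 5 differentiated arrays lay above all 16 adult arrays, of which the highest was -0.05, and 3.41% of islands had no overlap between these groups. The difference was 1.07 ± 0.08 (SE), with an adjusted p of 2.50e-10 by limma over all islands. It was called in all 28 alternative fits that scored the island, with differences from 0.79 to 1.25. Those that left out an embryo or an undifferentiated array changed only the shared estimate of the spread, not this difference. Mbd1 was the only member unmethylated on every adult array and above 0.75 on at least 1 differentiated array, a pattern of 124 islands (0.908%).

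The rise was as large between arrays of the same slide. Endoderm 2 stood at 0.89 beside pancreas 1 at -0.24, and embryoid bodies stood at 1.00 beside brain 2 at -0.15. It also ran along the island. From upstream to downstream the 6 probes differed between the differentiated and adult means by 0.70, 1.20, 1.63, 1.22, 1.34 and 0.35, so that the probes from -274 to 86 bases relative to the start differed most. The last probe, 240 bases after the start, was already at 0.54 in adult tissue, whereas the adult means of the other 5 lay between -0.68 and -0.08.

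**Figure D2:**
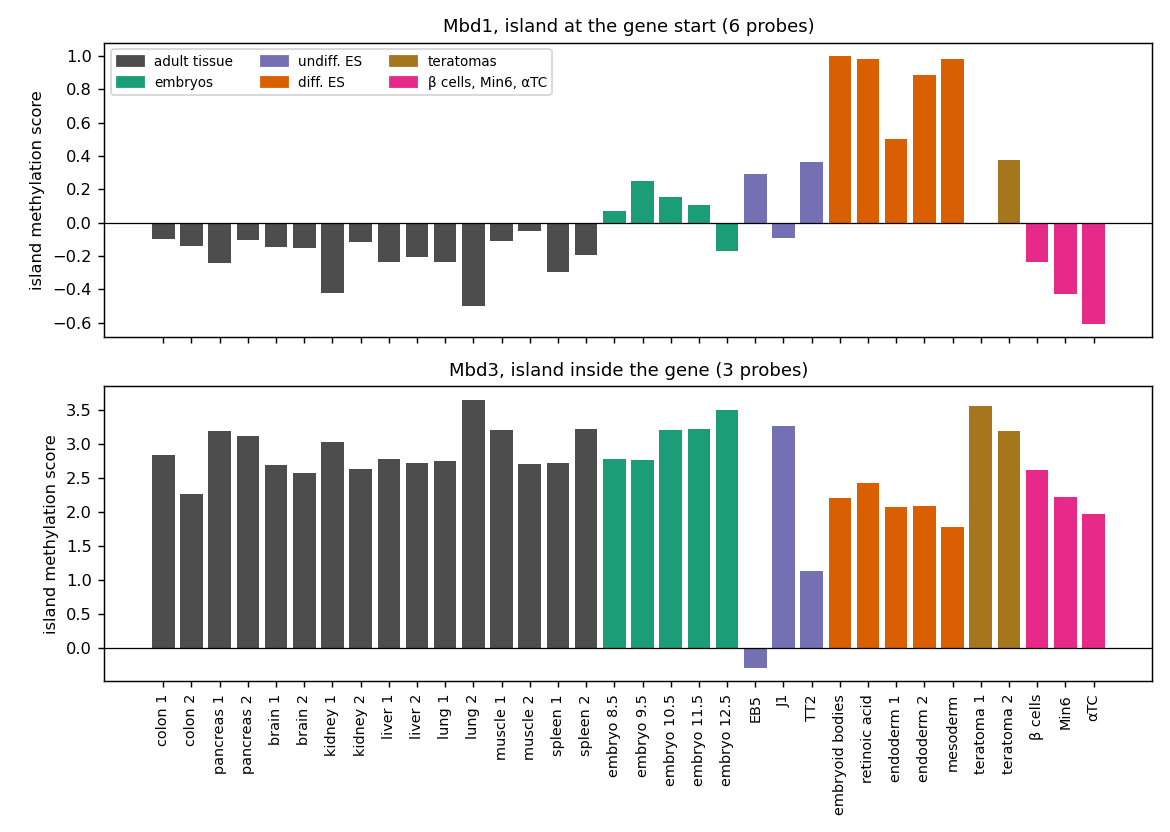
Island methylation score of the Mbd1 start island (top) and the internal Mbd3 island (bottom) on each of the 34 arrays, as bars from 0 coloured by group; the Mbd1 bar of teratoma 1 is too close to 0 to be seen. Mbd1 is between 0.50 and 1.00 on the differentiated ES arrays and below 0 on all adult ones, and the internal Mbd3 island is at -0.29 in EB5 and 1.13 in TT2 but at 3.26 in J1.

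The other 9 member islands did not pass the test against adult tissue, so that 1 of 10 was called against 22.9% of all islands (14.4% higher and 8.53% lower). Their median difference with Mbd1 included was -0.23, against -0.01 over all islands. Those of Dnmt1, the internal Dnmt3a island, the internal Mbd3 island and the Mbd3 start fell just short, with adjusted p of 0.0528, 0.0566, 0.0513 and 0.0598. Dnmt1 had a differentiated mean of -0.63 ± 0.39 and a difference of -0.32 ± 0.12, and endoderm 1, at -1.26, was the lowest of all 34 arrays. It was called without retinoic acid treated cells (-0.40, adjusted p = 0.0225), without mesoderm (-0.40, adjusted p = 0.0283), and without TT2 or embryo 10.5 (adjusted p = 0.0493 and 0.0464). Most alternatives did not call it: 8 of 30 did, with differences over all of them from -0.42 to -0.05.

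The internal Dnmt3a island had a differentiated mean of -0.20 ± 0.25 and a difference of -0.25 ± 0.10, called without mesoderm (adjusted p = 0.0319). Only 4 of 28 alternatives called it, and the differences ran from -0.40 to -0.15. The Mbd3 start had a differentiated mean of -0.71 ± 0.13 and a difference of -0.18 ± 0.07, likewise called without mesoderm (adjusted p = 0.0322). For this island 3 of 29 alternatives gave a call, and the differences ran from -0.24 to 0.01. Dnmt3b differed by -0.20 ± 0.12 (adjusted p = 0.235), and by -0.35 without the retinoic acid treated cells, which were its highest array at -0.11 (adjusted p = 0.0202). That was the only call of Dnmt3b in 27 alternatives. Mbd2 differed by -0.29 ± 0.14, the short-form island by -0.41 ± 0.24, Mbd4 by 0.07 ± 0.11 and Uhrf1 by -0.03 ± 0.08, none of them called with any array left out.

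In differentiated cells the internal Mbd3 island stood at 2.21 in embryoid bodies, 2.43 in retinoic acid treated cells, 2.08 and 2.09 in endoderm and 1.78 in mesoderm. These values lay at and below the lower end of adult tissue and overlapped it only through colon 2 at 2.26. The difference of -0.76 ± 0.28 missed the threshold in the fit of the 4 groups (adjusted p = 0.0513), and passed it in 7 of 27 alternatives. On the same adult and differentiated arrays it passed by the methods' t-test (adjusted p = 0.00208) and with the 2 groups alone (adjusted p = 0.000861). Centred log2 ratios (-1.60, adjusted p = 0.0375) and a random slide effect (-0.80, adjusted p = 0.0377) also gave the call. With an array left out, it passed without EB5 (adjusted p = 0.00895), without J1 (adjusted p = 0.00222) or without retinoic acid treated cells (adjusted p = 0.0480). Without EB5 or J1 the difference itself is the same, since those arrays enter this comparison only through the shared estimate of the spread.

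**Figure D3:**
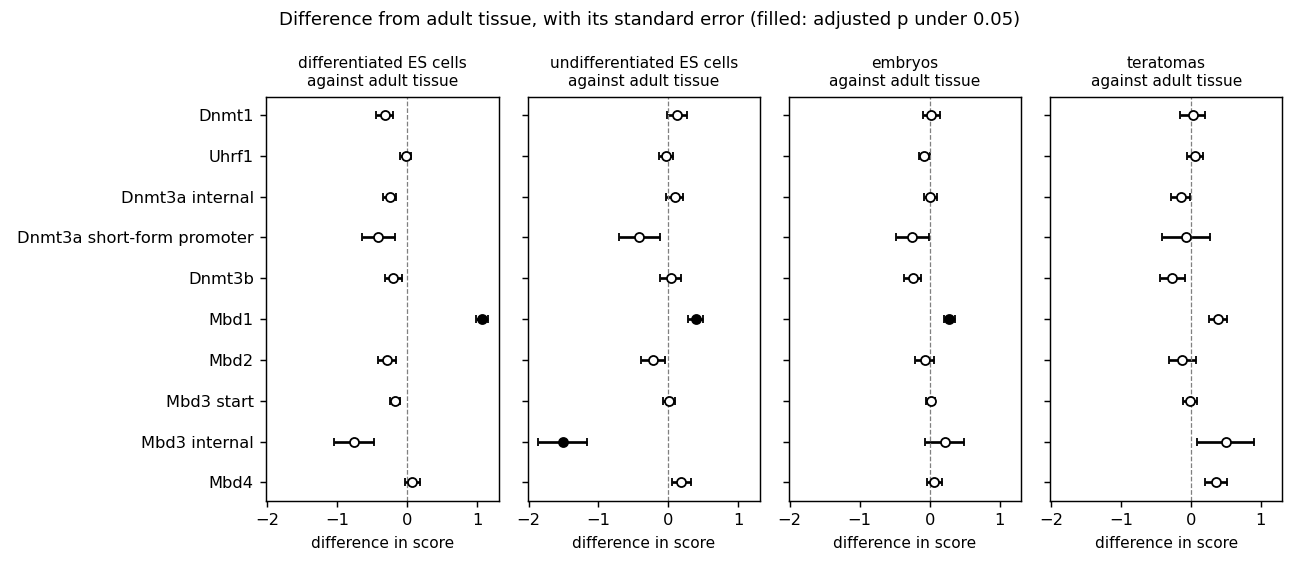
Difference in island methylation score from adult tissue (horizontal axis) for the 10 islands in 4 comparisons, with bars of 1 standard error from limma and filled points where the adjusted p is under 0.05. Mbd1 lies to the right of 0 in each panel, at 1.07, 0.39, 0.28 and 0.39, and the internal Mbd3 island is at -1.51 in undifferentiated ES cells.

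In undifferentiated ES cells, against the same adult arrays, the internal Mbd3 island was lower and Mbd1 higher, 2 of 10 members called against 2.37% of all islands. Inside Mbd3 the IMS was -0.29 in EB5, 1.13 in TT2 and 3.26 in J1. EB5 and TT2 lay below every adult array and J1 within their range. The difference was -1.51 ± 0.35 (adjusted p = 0.0176), and without EB5 it was -0.68 (adjusted p = 0.421), without TT2 -1.39 (adjusted p = 0.297). Without J1 the 2 remaining lines averaged 0.42 ± 1.00, and the difference was -2.46 (adjusted p = 1.13e-07). J1 is the array whose deposited values differ from its scanner values: by the deposited table, which holds only 1 of the 3 probes, it was at 1.15.

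The gap was also found on shared slides, with EB5 at -0.29 beside pancreas 2 at 3.12, and TT2 at 1.13 beside the embryo of day 8.5 at 2.78. All 3 probes took part. They read 0.44, -1.18 and -0.14 in EB5 and 0.59, 1.32 and 1.46 in TT2, against adult means of 2.02, 3.03 and 3.59. In J1 they read 2.74, 3.27 and 3.78, each above its adult mean.

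Mbd1 in undifferentiated cells was at 0.29 in EB5, 0.36 in TT2 and -0.09 in J1. EB5 and TT2 lay above all adult arrays and below all differentiated ones, and J1 lay among the adult arrays. The difference from adult tissue was 0.39 ± 0.10 (adjusted p = 0.0392), and it was 0.34 without EB5 (adjusted p = 0.374), 0.30 without TT2 (adjusted p = 0.495) and 0.53 without J1 (adjusted p = 0.00326). By the deposited table J1 was at 0.75 for 5 of the 6 probes. With the scan day as a block both calls were lost, each with an adjusted p of 0.950.

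The fit of differentiated against undifferentiated ES cells held no term for the parent line, so derivatives of the same line counted as independent arrays. By the labels no differentiated array came from J1. Between differentiated and undifferentiated ES cells Mbd1 was the only member called, 1 of 10 against 5.35% of all islands. It was higher in the differentiated cells by 0.68 ± 0.12 (adjusted p = 0.00116), and by 0.54 without J1 (adjusted p = 0.0158), and the groups did not overlap, as for 8.82% of islands. With J1 from the deposited table, at 0.75 and so above endoderm 1, they did overlap, and the difference was 0.40 (adjusted p = 0.0246). With the slide as a fixed block the difference was 0.75 but was not called (adjusted p = 0.113). The internal Mbd3 island differed by 0.75 ± 0.40 (adjusted p = 0.294), and without J1 by 1.70 (adjusted p = 0.000957), so that J1 decided this call. The pair of parent lines was set against each other in an interaction of line and differentiation, where no member was called and no island at all (0%), with 419 islands at an unadjusted p under 0.05. With 1 parent array a line, this does not show that the lines changed alike. There the internal Mbd3 island stood at -0.29 in EB5 against 1.78 to 2.09 in its derivatives, and at 1.13 in TT2 against 2.21 and 2.43 in its own, a difference between both changes of 1.08 ± 0.36 with an adjusted p of 1.00.

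**Figure D4:**
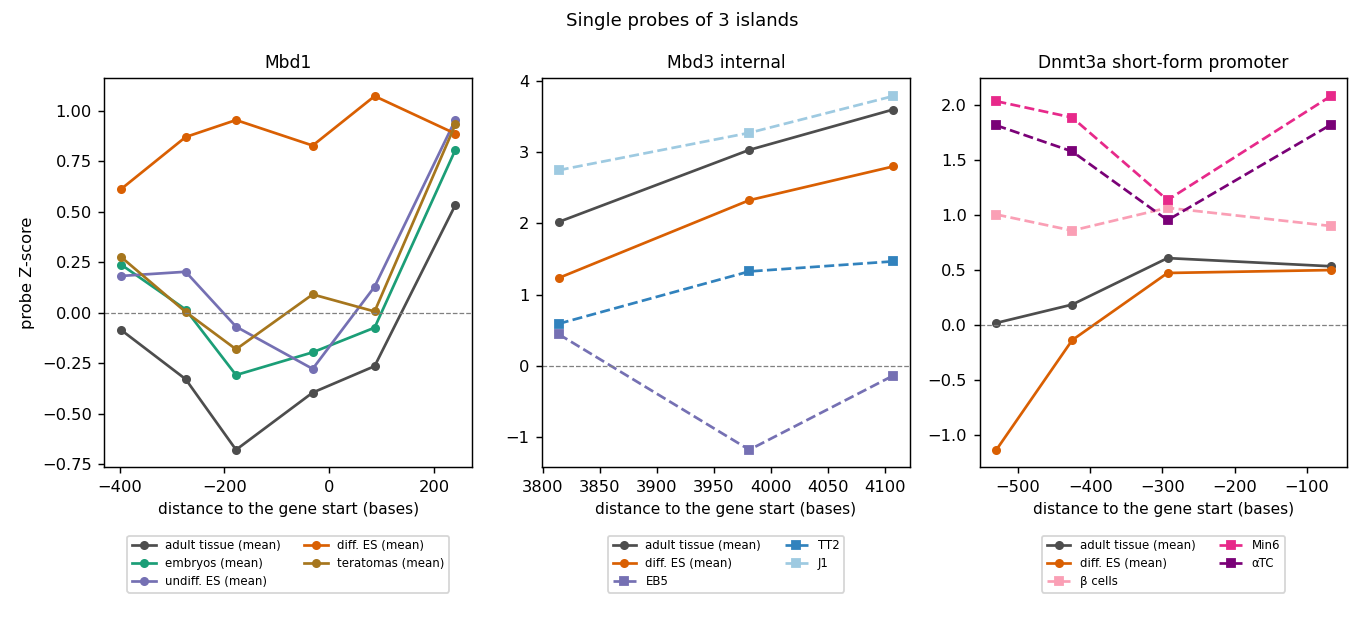
Z-score of single probes (vertical axis) against their distance from the gene start in bases, for the Mbd1 island, the internal Mbd3 island and the Dnmt3a short-form island, with solid lines for group means and dashed lines for single arrays. The differentiated mean of Mbd1 lies between 0.61 and 1.07 along the island, and EB5 and TT2 lie below the adult mean at all 3 probes of Mbd3.

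Embryos were compared with adult tissue as the normal counterpart in development. Mbd1 was the only member called, 1 of 10 against 7.61% of all islands (4.53% higher and 3.08% lower). It was at 0.07 on day 8.5, 0.25 on day 9.5, 0.15 on day 10.5, 0.11 on day 11.5 and -0.17 on day 12.5. The first 4 lay above every adult array and day 12.5 lay among them. The difference was 0.28 ± 0.08 (adjusted p = 0.0350). Embryos shared no slide, scan day or software version with adult tissue, so fits with such a block compare them only through the ES cell arrays. The call was lost without the embryo of day 8.5, 9.5, 10.5 or 11.5 (0.24 to 0.29, adjusted p from 0.0746 to 0.155) and in the fit blocked by slide (0.10, adjusted p = 0.984), and the value turned to -0.055 in the fit blocked by scan day. In embryos the internal Mbd3 island, at 2.77 to 3.50, lay within the adult range, and Dnmt3b, at -0.97 to -0.48, differed by -0.24 ± 0.12 (adjusted p = 0.255).

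Against these embryos, differentiated ES cells had 2 of 10 members called, where 21.3% of all islands were (11.7% higher and 9.6% lower). Mbd1 was higher in the differentiated cells by 0.79 ± 0.10 (adjusted p = 3.70e-06). The lowest differentiated array, endoderm 1 at 0.50, lay above the highest embryo, day 9.5 at 0.25. The internal Mbd3 island was lower, with a difference of -0.98 ± 0.35 (adjusted p = 0.0452), again without overlap, with the highest differentiated array at 2.43 and the lowest embryo at 2.77. Groups that do not overlap were found for 14.5% of islands. The Mbd3 call was lost without any 1 of embryos 10.5, 11.5 and 12.5, embryoid bodies, either endoderm or mesoderm (adjusted p from 0.0623 to 0.105, with the smallest difference, -0.88, without embryo 12.5), and in the fit blocked by slide the value turned to 1.02 and was not called. With that block Mbd1 differed by 1.04 and was not called (adjusted p = 0.120).

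Mbd1 was lower in both teratomas than in any of the cells differentiated in culture. Its IMS was close to 0 in teratoma 1 and 0.38 in teratoma 2. By the labels the teratomas came from J1, itself at -0.09 by its scanner values but at 0.75 by the deposited values of 5 of the 6 probes. The 5 differentiated arrays were labelled as derived from EB5 or TT2, so parent line and growth as a teratoma cannot be told apart. Against adult tissue no member was called (0 of 10, where 0.183% of all islands were and 930 had an unadjusted p under 0.05), although both teratomas lay above every adult array for Mbd1, as for 2.95% of islands; the difference was 0.39 ± 0.13 (adjusted p = 0.417). Against differentiated ES cells 1 of 10 was called, where 6.89% of all islands were. Mbd1 was lower in the teratomas, with a difference of -0.68 ± 0.14 (adjusted p = 0.00300), and of -0.49 without teratoma 1 (adjusted p = 0.222). It was not called when only these 2 groups were fitted (adjusted p = 0.0950), where the internal Mbd3 island was (adjusted p = 0.0136). Inside Mbd3 J1 was at 3.26 by its scanner values, but at 1.15 by the deposited value of 1 of the 3 probes. The teratomas stood there at 3.56 and 3.20, above all differentiated arrays, as Mbd1 lay below them, where 22.8% of islands showed no overlap. For the internal Mbd3 island the difference was 1.26 ± 0.46 (adjusted p = 0.0935), and it passed the threshold without EB5 or J1 (adjusted p = 0.0218 and 0.00600). How many cells of the host the teratomas held was not tested.

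The pancreatic cells had 1 array each, so the values have no replicate check and no test. No member island of Min6 or αTC was more than 1 away from ex vivo β cells, where 10.6% and 14.1% of all islands were. The short-form island of Dnmt3a was the highest of the start islands in all 3 kinds of cell. It was at 0.96 in β cells, 1.78 in Min6 and 1.54 in αTC, with both lines above every other array and β cells within the adult range. At its single probes Min6 read 2.03, 1.89, 1.14 and 2.08 and αTC 1.81, 1.58, 0.95 and 1.82, against adult means of 0.02, 0.19, 0.61 and 0.53. Inside Mbd3 the IMS was 2.62 in β cells, 2.21 in Min6 and 1.98 in αTC, lower by this scale in both lines, but higher by 1.18 and 0.98 when log2 ratios centred on the array median were used, while normexp background correction gave 0.21 in Min6 and -0.14 in αTC. With centred log2 ratios the short-form difference was 2.29 in Min6 and 2.04 in αTC, and with normexp 1.67 and 1.47. Mbd2 in αTC was at -1.45 from β cells with centred log2 ratios. Mbd1 stayed below 0, at -0.24, -0.43 and -0.61, and αTC was the lowest of the 34 arrays. So it was for Mbd2 (-1.42), the Mbd3 start (-1.09) and Mbd4 (-0.78). The median of all islands was also lower in αTC, at -0.34, than in β cells, at -0.14.

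The probes of Dnmt3l, which some files name Aire after the neighbouring autoimmune regulator, lay 8949 and 9244 bases after the Aire start on chr10. The nearer one to that start was methylated in normal tissue, with an adult mean of 3.05 ± 0.32 and a range from 2.70 to 3.86. It averaged 2.25 ± 0.56 (n = 5) in differentiated ES cells, with no test run, and was at 1.81 in β cells, 0.86 in Min6 and 1.23 in αTC. The other probe had an adult mean of 1.21 ± 0.65 and was at 1.05, 0.17 and 0.21 in the same pancreatic cells. Single probes were given no island score.

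Genes that act with the members were taken from 6 lists of 52 genes, of which 38 had 46 islands. In differentiated ES cells 2 of the 46 were higher and 8 lower than in adult tissue, 21.7% against 22.9% of all islands. Of 10 islands of other CpG readers 2 were higher and 2 lower. Zbtb38, a zinc finger reader of methylated CpG, was higher by 0.59 ± 0.12 (adjusted p = 0.000707). An island of Kdm2b, a histone demethylase that binds unmethylated CpG, was higher by 0.40 ± 0.11, and 1 of its relative Kdm2a was lower (-0.31 ± 0.10). The other lower island also belonged to Kdm2a, Kdm2b or Zbtb38. Of 9 islands of NuRD subunits, the partners of Mbd3, 1 was lower, in Gatad2a (-0.41 ± 0.11). Of 8 islands of partners of the methyltransferases 2 were lower, those of the histone methyltransferase Ehmt2 (-0.53 ± 0.16) and of the corepressor Trim28 (-0.35 ± 0.11). Of 7 islands of the Polycomb complex PRC2 2 were lower, those of Jarid2 (-0.36 ± 0.07) and Eed (-0.28 ± 0.08), and of 7 of demethylation genes 1 was, that of Gadd45a (-0.30 ± 0.10). None of 5 islands of S-adenosylmethionine supply was called. Of the 46, 2 were higher and 0 lower with the slide fixed (Zbtb38 and Kdm2b), 2 and 1 with the scan day, and 1 and 4 with the software version. Among the genes left without an island were Tet1 and Tet3, which oxidise methylcytosine, the readers Mbd5, Mbd6 and Zbtb4, and the NuRD subunits Mta1, Mta2 and Gatad2b.

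In embryos 4 of the 46 islands were higher and 2 lower than in adult tissue, 13% against 7.61%. Zbtb38 was higher by 0.80 ± 0.12, Ezh1 by 0.58 ± 0.09 and Suz12 by 0.36 ± 0.09, the latter pair subunits of PRC2, and Mat2b, a regulator of S-adenosylmethionine synthesis, by 0.68 ± 0.14. Gadd45b was lower (-0.80 ± 0.22), as was a second island of Kdm2b (-0.35 ± 0.10). None of these 6 was called with the slide as a fixed block, the scan day or the software version, which embryos did not share with adult tissue. Against embryos, differentiated cells had 2 higher and 8 lower, 21.7% against 21.3% of all islands. The higher ones were Gadd45b (0.79 ± 0.27) and another island of Kdm2b (1.25 ± 0.45). The lower ones were Ehmt2 (-0.67 ± 0.20), a second island of Jarid2 (-0.63 ± 0.20), Mat2b (-0.49 ± 0.18), Suz12 (-0.46 ± 0.11), Ezh1 (-0.43 ± 0.12), Ahcy (-0.43 ± 0.16), Gatad2a (-0.37 ± 0.13) and Gadd45a (-0.35 ± 0.12). With the slide as a fixed block or the scan day 0 of the 46 were called, and with the software version Suz12 alone. No island of the lists was called between undifferentiated cells and either adult tissue (2.37% of all islands) or differentiated cells (5.35%), with or without J1, in either comparison of the teratomas, among adult tissues, or in the interaction. Between differentiated and undifferentiated cells 1 island of Kdm2b was higher with the slide fixed or random or with the scan day, and Gatad2a was lower with the random slide effect.

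The internal Mbd3 island, with an SD of 0.75 over 34 arrays the most variable member, was matched against 11983 named islands of other genes by Pearson's r. The 5 most like it were those of AB112350 (0.93), Nr1h2 (0.92), Zfp358 (0.91), Ankrd9 (0.91) and Nt5dc2 (0.91). The correlation is a description over arrays that share slides and scan days, and without EB5 and TT2 it was 0.82, 0.92, 0.81, 0.82 and 0.85 over 32 arrays. They were picked for likeness over all 34 arrays, EB5 and TT2 included, so that the choice itself favours low values in those lines. All 5 were methylated in adult tissue, with means from 2.71 to 3.61, and lower in EB5, at -0.35 to 0.91, and TT2, at 0.89 to 1.69. In J1 they were at 3.12 to 3.82.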

How the data were processed

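The authors hybridised mDIP bound DNA (Cy5) and input DNA (Cy3) and read the intensities of each spot with Agilent Feature Extraction. The deposited scanner files hold these intensities and, after background subtraction and a linear dye normalization, the log10 ratio of bound over input per probe. The authors' deposited table holds a score per probe, a Z-score taken by their methods within classes of probe melting temperature, a step left out here.

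Each array's log10 ratios were turned into Z-scores over its usable probes, without control spots and spots marked as outliers. Of 97651 probes on the larger grid and 88737 on the smaller, 88311 with a position were shared by every array. Positions come in 2 sets (28 and 6 arrays), those of the first serve here, and no build is named. Gene names were held by 18 files. Neighbouring probes no more than 500 bases apart, at least 3 in a run, formed 13651 islands with a median of 5 probes. Of 60 member probes, 53 were on every array, and the member islands hold 57 probes with those of neighbours.

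Groups follow the labels. Differences were fitted on all islands with limma 3.58.1 in R 4.3.3 (lmFit and eBayes, 1 mean per group, no covariate), with p-values adjusted by Benjamini-Hochberg and called under 0.05. Teratomas were added to the fit of the other 4 groups, adult tissues were compared by an F test on their own arrays, and the interaction used EB5, TT2 and their derivatives. These fits were run on simulated data with independent arrays, so likeness within a slide was not covered. Of changes of 1 planted in 200 islands, 76.5% to 95.5% were recovered in the comparisons of groups. Among adult tissues and in the interaction 0% were, against 89.5% and 79% of changes of 2. The change was planted in brain alone for the tissues and in the EB5 derivatives alone for the interaction. All other islands were simulated without group differences, so the shares hold for that setting only. Other steps used Python 3.11.15, numpy 2.4.6, pandas 2.3.3 and matplotlib 3.10.9. Promoters were read from RefSeq tables of GRCm38.p6.

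An input well above background was found for 62.4% to 99.9% of probes. No arrays held identical values, and array correlations ran from 0.41 to 0.93. Errors are SDs over arrays or SEs of the fit.

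All islands of the 9 genes are named, then genes of the 6 lists whose called island has the largest difference (at most 3 per list and comparison), then the 5 islands most like the most variable member. Members and lists were chosen with earlier results of these data known. Differences over 1 were called for single arrays. Alternatives were run for the scale, background, probe summary, minimum number of probes, gap, islands broken at gene names, grid, brightness, source of J1, batch (slide, scan day, software version, grid), test, arrays in the fit and each array left out.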

Additional observations from a re-analysis of the deposited data

Results flagged for a closer look

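For Mbd1, endoderm 1 lay apart from the other differentiated ES cells. Its IMS was 0.50 where the other 4 arrays lay between 0.89 and 1.00, and the gap to the nearest of them was 0.773 of the range of the 5 arrays, above the limit of 0.71 for a single low value. It was 1 such array among the groups of 5 for the 10 member islands, and chance marks about 1 group in 20. Without endoderm 1 the difference of Mbd1 from adult tissue was 1.17, against 1.07 with it.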

How the results depend on the processing

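The rise of Mbd1 from adult tissue to differentiated ES cells was called in all 28 alternatives that scored the island, some of which left out only arrays of other groups. The other calls on members depended on the processing, and causes were not tested. Counts of members called follow, of 10 islands unless stated. The deposited value table scored 3 and the filter on bright probes 5 of them, neither with Mbd1. With at least 5 probes both Dnmt3a islands, Dnmt3b, Mbd2 and the internal Mbd3 island, of 3 or 4 probes, were not scored. They could not be called there.

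For differentiated cells against adult tissue (1 called), the count was 4 with log2 ratios centred on the array median, with the grid as a block and under a random slide effect, 2 with all probes of each grid, with the scan day as a block, with the methods' t-test and with the 2 groups alone, 0 with the deposited table and with bright probes, and 1 to 4 with single arrays left out. For undifferentiated cells against adult tissue (2 called), it was 1 with the median of the probes, at least 5 probes, the deposited table (Dnmt1, 0.48, adjusted p = 0.0250), J1 taken from that table or the slide as a fixed block, 0 with centred log2 ratios, normexp on median signals, bright probes, the scan day, the software version, the t-test or the 2 groups alone, and 0 to 2 with single arrays left out. For embryos against adult tissue (1 called), it was 2 with all probes of each grid, 0 with centred log2 ratios, the median of the probes, the deposited table, normexp, bright probes, the slide fixed or random, the scan day, the software version or the grid, and 0 to 1 with single arrays left out.

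For differentiated against undifferentiated cells (1 called), it was 3 with the grid as a block, 2 with J1 from the deposited table, 0 with normexp, bright probes, the t-test or the 2 groups alone, and 1 to 2 with single arrays left out. With the slide fixed it was again 1, the internal Mbd3 island (2.68, adjusted p = 0.0230) in place of Mbd1, and with the deposited table Dnmt1 (-0.54, adjusted p = 0.0366). For differentiated cells against embryos (2 called), it was 1 with the median of the probes, at least 5 probes, all probes, normexp, the scan day, the software version, the grid or the slide as a random block, 0 with the deposited table, bright probes or the slide fixed, and 1 to 2 with single arrays left out. For teratomas against differentiated cells (1 called), it was 0 with the deposited table, normexp, bright probes or the t-test, 1 with the 2 groups alone (the internal Mbd3 island in place of Mbd1), and 0 to 2 with single arrays left out.

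Members below 0 on every adult array (5) were 3 with centred log2 ratios and with at least 5 probes, and 2 with the deposited table and with bright probes. With at least 5 probes Dnmt3b and Mbd2 were not scored. Member differences past 1 in the pancreatic lines (0) were 4 with centred log2 ratios (the Dnmt3a short form in both lines, the internal Mbd3 island in Min6 and Mbd2 in αTC), 1 with the median of the probes (the short form in Min6, 1.01) and 2 with normexp (the short form in both lines). Of the 8 called differences 2 had another sign in an alternative, Mbd1 in embryos with the scan day (-0.055) and the internal Mbd3 island against embryos with the slide fixed (1.02). Of the 72 differences not called 48 had another sign in at least 1 alternative, and of the 20 between single arrays 4 did, among them the internal Mbd3 island in Min6 with centred log2 ratios (1.18). With the replicate block among adult tissues 0 members and 9 islands were called. Correlations between tissues of the same number ran from -0.25 to 0.61 over 28 pairs, with a median of 0.096 and 13 pairs over 0.1. Whether the numbers pair the arrays was not tested.

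Over all islands, differentiated cells against adult tissue gave 3131 calls (1966 higher), and 2175 (1145 higher) with centred log2 ratios, 1751 (1418 higher) with normexp and 1973 with the slide fixed. Against embryos they gave 2914, and 95 with the slide fixed, 345 with the scan day, 187 with the software version and 766 with normexp. Embryos against adult tissue gave 1039, and 3, 0 and 2 with those blocks. Undifferentiated cells against adult tissue gave 324, and 0 without EB5, 0 without TT2 and 1189 without J1. Differentiated against undifferentiated cells gave 730, and 49 with normexp, 170 with the slide fixed and 1388 without the retinoic acid treated cells. Teratomas against differentiated cells gave 940, and 150 and 199 with 1 teratoma left out. Among adult tissues 11 became 334 with the grid as a block. Normexp on mean signals was not run, since 16 files hold none, and slide and scan day could not be fitted as fixed blocks for teratomas, adult tissues or the interaction.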
